A study of Mus musculus with 4 samples.

Results

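NF-kappaB is a family of dimeric transcription factors, and the genes described here encode its subunits, the IkB proteins that hold it in the cytoplasm, and 2 enzymes that end its signalling. The 10 genes were Nfkb1, Nfkb2, Rel, Rela, Relb, Nfkbia, Nfkbib, Nfkbie, Tnfaip3 and Cyld. Every probe set with 1 of these names as its only gene symbol was taken. This gave 12 of the 22690 probe sets on the array, for 8 genes, and Nfkb1 and Cyld were not analysed here. All 12 passed the filter on dim probe sets.

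Expression was measured on Affymetrix arrays in cultures of C57BL/6 mouse osteoclasts, the cells that resorb bone. The 2 wild-type arrays came from NFATc1 fl/fl MxCre- mice and the 2 deficient arrays from NFATc1 fl/fl MxCre+ mice, so both genotypes carried the floxed allele. In MxCre+ mice the recombinase is driven by the interferon-inducible Mx1 promoter, active in many cell types, and it was switched on with polyIC; whether the MxCre- mice received polyIC is not given in the sources used here. Precursors sorted from marrow as c-Kit and c-Fms positive cells without CD11b, CD3e or B220 were pooled from 3 mice for replicate 1 and 4 mice for replicate 2 in each genotype, then cultured in M-CSF plus RANKL over 3 days. The ages of the mice are not given in the sources used here.

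RANKL activates NF-kappaB in osteoclast precursors by 2 routes. In the canonical route the IKK complex marks IkB proteins for destruction and frees dimers of Rela or Rel with the product of Nfkb1. In the noncanonical route the long product of Nfkb2, which itself restrains Relb, is cut to a short form that enters the nucleus with Relb. Mice that lack both Nfkb1 and Nfkb2 form no osteoclasts, and NF-kappaB is known to act early on the Nfatc1 gene, upstream of the factor deleted here. NF-kappaB also switches on its own inhibitors, Nfkbia and Tnfaip3 among them, which closes a feedback loop.

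The labels were checked first. Nfatc1 signal at its brighter probe set was 5434 and 6147 on the wild-type arrays and 3018 and 4098 on the deficient arrays, so the deficient arrays kept 61.5% of the wild-type mean, and 68.5% at the other probe set. Whether either probe set lies within the deleted exons is not known here. All 7 tested osteoclast markers were lower in the deficient cultures, and both the wild-type and deficient arrays gave high signal for cathepsin K (Ctsk) and tartrate-resistant acid phosphatase (Acp5). Markers of other cells also moved: 4 of 9 granulocyte genes rose, with summed signals of 5727 to 6414 on the wild-type and 7744 to 15481 on the deficient arrays, and 3 of 6 tested antigen-presenting cell genes rose, with sums of 4692 to 5620 and 6859 to 7439. Of 8 macrophage markers Csf1r and Cd68 fell and Cd14 rose, with sums of 33846 to 38492 and 28797 to 29526. Of 9 lymphoid genes with a probe set 2 passed the filter, of which Il7r rose, with sums of 387 to 649 and 688 to 692. No marker was listed at 0. The part of these shifts in the results below was not tested, and fewer cells of a type and less RNA per cell cannot be told apart in these cultures.

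The sequences just upstream of the members are shown for the letters that NF-kappaB and NFAT proteins are known to recognise. For Relb and Nfkb1 no window was taken, so neither was searched. RefSeq (GRCm38.p6) gave 11 windows of 250 bases before a transcription start for the other 8 genes, Cyld among them. A match to the NF-kappaB consensus motif on either strand was found in 10 of these windows, for 7 genes, beside 12.6% of all 32851 windows of this length. The exception was Nfkbib. The NFAT core hexamer TGGAAA, searched on both strands, was found in 3 of the 11 windows, for Nfkbia, Tnfaip3 and Nfkb2, beside 18.6% of all windows. A window each of Nfkbia and Tnfaip3 is shown. The choice rests on the 2 member probe sets with the lowest deficient signals relative to wild-type, 1448306_at (Nfkbia) and 1450829_at (Tnfaip3). Capitals mark the matches to the NF-kappaB motif, and both run 5′ to 3′ on the minus strand.
Nfkbia (chr12:55492648-55492897): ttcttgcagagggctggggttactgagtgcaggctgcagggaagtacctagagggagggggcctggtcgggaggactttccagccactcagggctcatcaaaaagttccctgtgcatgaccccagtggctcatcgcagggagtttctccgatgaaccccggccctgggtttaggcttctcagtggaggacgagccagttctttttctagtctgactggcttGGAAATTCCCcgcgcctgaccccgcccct
Tnfaip3 (chr10:19015411-19015660): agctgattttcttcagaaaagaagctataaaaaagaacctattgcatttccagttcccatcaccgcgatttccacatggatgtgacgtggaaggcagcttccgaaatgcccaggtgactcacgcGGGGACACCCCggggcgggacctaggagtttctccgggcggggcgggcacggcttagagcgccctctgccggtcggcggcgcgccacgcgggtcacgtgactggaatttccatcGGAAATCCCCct

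In Nfkbia the match began 29 bases before the start, and 1 of the 2 TGGAAA matches, at 30 bases, overlapped it. In the Tnfaip3 window shown the nearest match began 12 bases before the start, and none of the 3 TGGAAA matches overlapped an NF-kappaB match. The window of another Tnfaip3 start, not shown, had 1 NF-kappaB match, 90 bases before that start, and no TGGAAA match. Matching stretches were GGGAAATCCCC in the window of Rel, GGGGGATTCC in that of Nfkbie, and GGGAATTCCCC and GGGGCTTTCCC in that of the first Nfkb2 start listed. A match describes letters and does not show that a factor binds there.

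The 8 genes measured differed little between the NFATc1-deficient and wild-type cultures. With limma and Benjamini-Hochberg adjustment over all 13575 probe sets tested, 1 of the 12 member probe sets passed an adjusted p of 0.05, a probe set of Nfkbia that was lower. This is 8.33% of the members, beside 24.3% of all probe sets tested. None was higher, beside 12.8% of all probe sets, and at an unadjusted p under 0.05 by limma 0 of the 12 were higher, beside 19.8% of all. The median absolute change of the members was 0.10 on the log2 scale, with 0.29 over all probe sets tested, and 2 of the 12 exceeded the latter. Changes are of log2(signal + 23.3), for deficient minus wild-type, which understates those of dim genes.

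**Figure D1:**
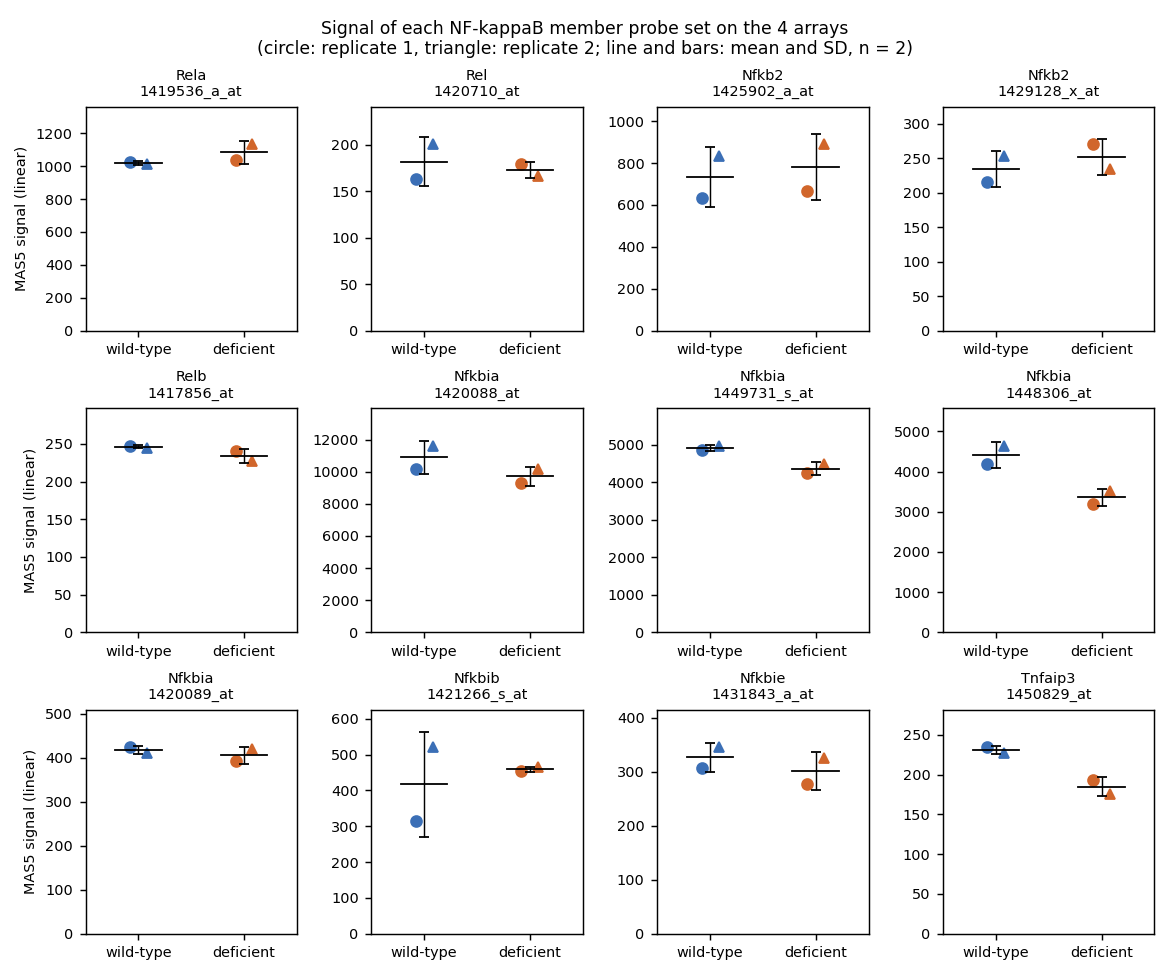
MAS5 signal (linear axis from 0) of the 12 member probe sets on the 2 wild-type and 2 NFATc1-deficient arrays, with the mean and SD of each group. The groups lie apart for Nfkbia 1448306_at (4187 and 4646 against 3204 and 3511) and for Tnfaip3, and their points lie close together or overlap in most other panels.

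Among the canonical subunits, Rela, which carries the main activation domain of the family, gave signals of 1026 and 1012 in the wild-type cultures and 1035 and 1134 in the deficient ones. Both deficient values lay above both wild-type values, by a margin small beside their own spread. The change was 0.09 (SE 0.11, limma adjusted p = 0.635), with a 95% interval of -0.17 to 0.35. Rel encodes c-Rel, the subunit best known from lymphoid and antigen-presenting cells. Its signals were 163 and 201 in wild-type and 179 and 167 in deficient cultures, and the groups overlapped. The change of Rel was -0.06 (SE 0.20, limma adjusted p = 0.870), with an interval of -0.52 to 0.40.

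The noncanonical pair was also close between genotypes. Nfkb2, whose product is both an inhibitor and the source of a subunit, had 2 probe sets. The brighter gave 632 and 834 in wild-type and 668 and 890 in deficient cultures, and in both genotypes replicate 2 was the higher. Its change was 0.09 (SE 0.18, limma adjusted p = 0.776), and between arrays of the same replicate number it was 0.08 and 0.09. The second Nfkb2 probe set gave 215 and 253 against 270 and 234, a change of 0.10 (SE 0.18, limma adjusted p = 0.747), but same-numbered arrays differed by 0.30 (replicate 1) and -0.10 (replicate 2). Relb, the partner of processed Nfkb2, gave 248 and 245 in wild-type and 241 and 227 in deficient cultures. The deficient Relb values were below both wild-type values, yet the change was -0.07 (SE 0.17, limma adjusted p = 0.819), with an interval of -0.46 to 0.32.

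Nfkbia, the IkB-alpha gene, held the single probe set that passed. It is both the main cytoplasmic anchor of Rela dimers and one of the fastest NF-kappaB target genes. Its probe set 1448306_at gave 4187 and 4646 in wild-type and 3204 and 3511 in deficient cultures, so the deficient mean was 76.0% of the wild-type mean. The groups did not overlap. The change was -0.39 (SE 0.11, limma adjusted p = 0.0317), with an interval of -0.64 to -0.14, and same-numbered arrays differed by -0.38 (replicate 1) and -0.40 (replicate 2). The call was lost without wild-type replicate 2 (-0.32, limma adjusted p = 0.0853), without deficient replicate 1 (-0.33, 0.230) or without deficient replicate 2 (-0.46, 0.0713). It was also lost with median scaling of the arrays (limma adjusted p = 0.253), without the filter (0.0701) and without the variance trend (0.114). Over all 12 alternatives the adjusted p of this probe set ran from 0.00926 to 0.253.

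The other 3 Nfkbia probe sets had smaller differences in the same direction, and none passed. The brightest, 1420088_at, gave 10156 and 11629 in wild-type and 9304 and 10145 in deficient cultures, with the higher deficient value just below the lower wild-type value. Its change was -0.16 (SE 0.12, limma adjusted p = 0.360). Probe set 1449731_s_at gave 4864 and 4976 against 4246 and 4483, a change of -0.17 (SE 0.10, limma adjusted p = 0.258). These groups did not overlap either. The dimmest, 1420089_at, gave 424 and 410 against 391 and 419, which overlap, with a change of -0.04 (SE 0.14, limma adjusted p = 0.872). The 4 probe sets measure 1 gene in the same 4 RNA samples, so they are not separate observations. The brightest tested probe set stood for each gene in the counts by gene, and by that rule Nfkbia did not pass.

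The other IkB genes did not separate the genotypes. Nfkbib, encoding IkB-beta, an inhibitor that is degraded more slowly, gave 314 and 521 in wild-type and 455 and 465 in deficient cultures. The 2 wild-type values lay on either side of the deficient ones, and the change between same-numbered arrays was 0.50 for replicate 1 and -0.16 for replicate 2. The fitted change was 0.17 (SE 0.22, limma adjusted p = 0.617), with the widest upper bound of any member, 0.66. Nfkbie encodes IkB-epsilon, an NF-kappaB-induced inhibitor that acts later than IkB-alpha. Its signals were 308 and 345 against 277 and 326. The groups overlapped, with a change of -0.11 (SE 0.17, limma adjusted p = 0.687).

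Tnfaip3 encodes A20, a ubiquitin-editing enzyme that shuts off signalling upstream of IKK and is itself induced by NF-kappaB. Its signals were 235 and 227 in wild-type and 193 and 176 in deficient cultures, and the deficient mean was 80.1% of the wild-type mean. The groups did not overlap, and the difference was -0.25 between replicate 1 arrays and -0.33 between replicate 2 arrays. The fitted change was -0.29 (SE 0.18, limma adjusted p = 0.296), and its interval of -0.71 to 0.13 reached lowest of all members. At this dim signal the standard error was larger than for the Nfkbia probe set that passed.

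**Figure D2:**
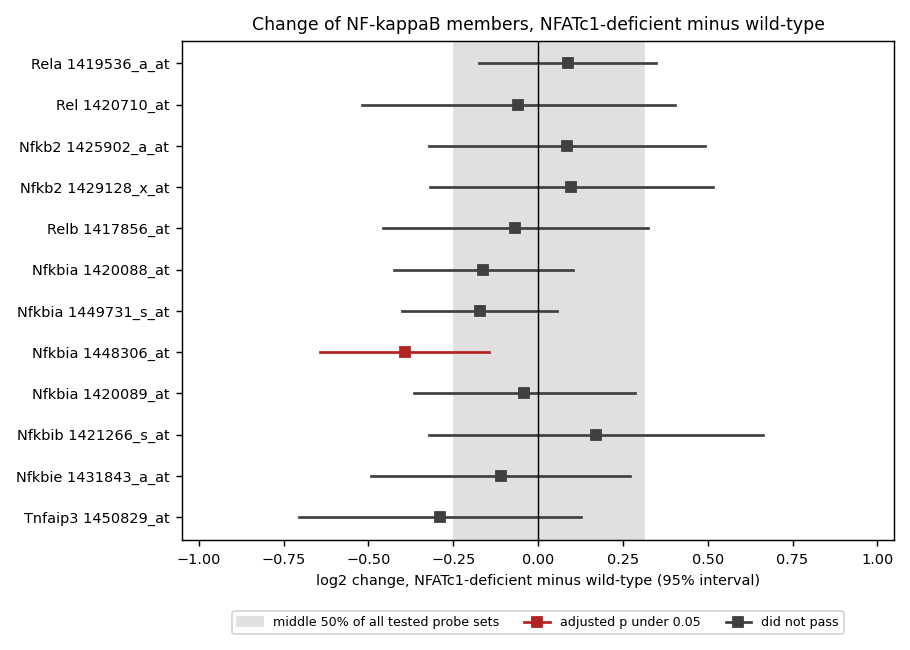
Change on the log2(signal + 23.3) scale with its 95% interval from limma for each member probe set (n = 2 per genotype), with the middle 50% of all tested probe sets (-0.25 to 0.31) shaded. The interval of Nfkbia 1448306_at lies below 0, the intervals of the other 11 include 0, and no interval reaches -1 or 1.

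The intervals bound what these arrays allow. Over the 12 probe sets the lowest lower bound was -0.71 (Tnfaip3) and the highest upper bound 0.66 (Nfkbib), which are 0.613-fold and 1.58-fold of wild-type. In 8 of the 12 (66.7%) the fitted change was below 0, beside 46.0% of all probe sets tested, and 4 of these 8 measure Nfkbia. In 5 of the 12 (41.7%) both deficient signals were below both wild-type signals, beside 28.8% of all probe sets tested, and 4 of those 5 were in the inhibitors Nfkbia (3 probe sets) and Tnfaip3 and the fifth in Relb. In 1 of the 12, Rela, both were above, beside 34.4% of all. The change had the same sign in both replicate pairs for 8 of the 12 probe sets (66.7%), beside 72.9% of all.

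Beyond the subunits and inhibitors, genes that act before and after them were read from lists of 89 receptors, adaptors, kinases, regulators and target genes. Of 68 genes tested, 7 fell, 8 rose and 53 did not pass, which is 22.1% called beside 24.9% of all 7797 genes tested (12.0% lower and 12.9% higher). Their median change was 0.01, beside 0.03 over all genes. These counts take the brightest tested probe set of each gene. Among genes that did not pass by it, Sharpin, Tax1bp1 and Cflar had another probe set that rose (0.57, 1.16 and 0.70, limma adjusted p = 0.020, 0.0448 and 0.0486). The brightest Cflar probe set had -0.44. For Xiap, 2 other probe sets fell (-0.95 and -0.41, limma adjusted p = 0.0244 and 0.0458). The median absolute change was 0.21 in these lists and 0.10 for the 8 member genes, with 0.28 over all genes. Of the rest, 7 had no probe set under their symbol alone and were not analysed here (Chuk, Traf3, Ripk1, Irak4, Rnf31, Nfkbid and Irak3). The other 14 genes were below the filter, with mean signals of 3.27 to 56.8, among them the inflammatory targets Il6, Nos2, Ptgs2, Cxcl1 and Ccl5.

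**Figure D3:**
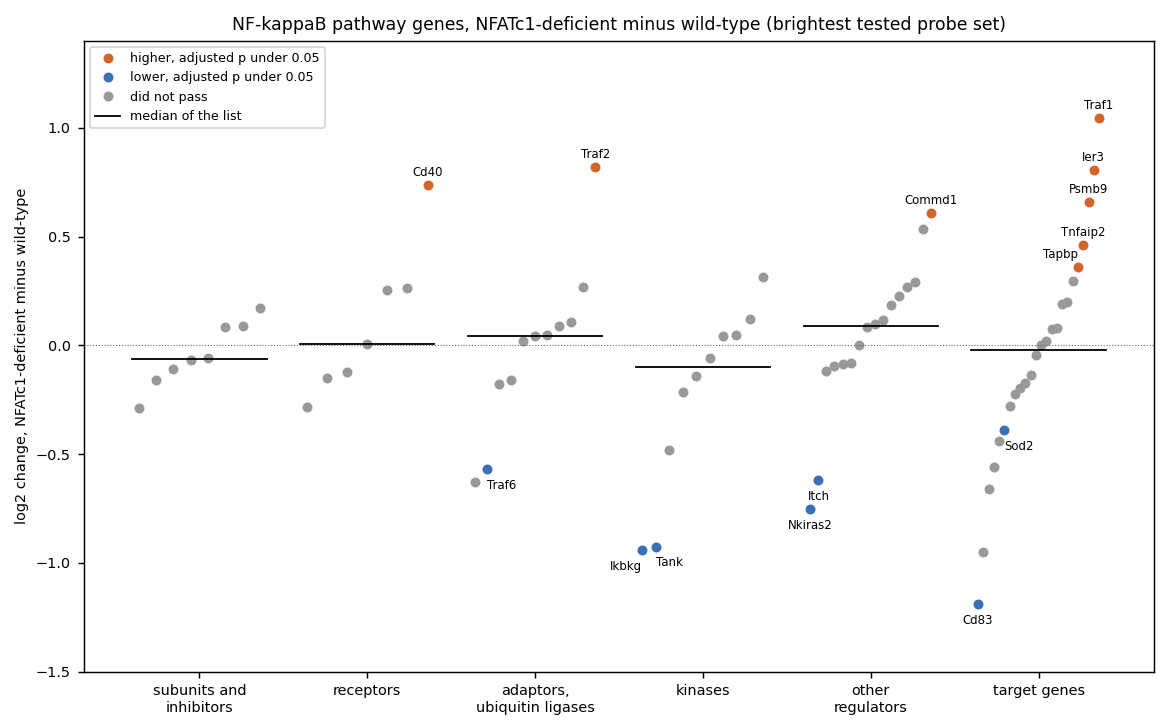
Change on the log2(signal + 23.3) scale of the brightest tested probe set of each gene, for the 8 members and the 5 pathway lists, with named points past an adjusted p of 0.05 and a line at each list's median. The members lie between -0.29 (Tnfaip3) and 0.17 (Nfkbib), while Ikbkg and Tank lie near -0.9 and Traf1 above 1.

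Of 10 genes tested in the list of kinases and their partners, 2 fell (Ikbkg and Tank) and 8 did not pass, a share of 20.0% called beside 24.9% of all genes. None rose by limma, and 0 of 10 were higher at an unadjusted p under 0.05, beside 19.7% of all genes. Ikbkg encodes NEMO, the regulatory subunit of the IKK complex. Its brightest probe set gave 782 and 823 in wild-type and 366 and 453 in deficient cultures, with no overlap and a change of -0.94 (SE 0.15, limma adjusted p = 0.00270). Of its 4 probe sets 3 fell, and the remaining one, with 822 and 502 against 353 and 516, had a change of -0.56 and an adjusted p of 0.132. Ikbkb, the catalytic partner of NEMO in the canonical route, had a change of -0.14 (adjusted p = 0.410). Map3k14, the NIK kinase of the noncanonical route, had -0.22 (adjusted p = 0.499), with 0.25 at its other probe set. Tab1, a partner of the kinase TAK1, had -0.48 (adjusted p = 0.107), and Map3k3 had 0.31 (adjusted p = 0.170), with -0.12 and 0.15 at its other probe sets. Tank, an adaptor that binds TRAF proteins and the kinase Tbk1, gave 2604 and 3078 against 1569 and 1397, a change of -0.92 (SE 0.12, limma adjusted p = 0.00135).

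Of the TRAF adaptors tested in the adaptor list, Traf6 fell, Traf2 rose and Traf5 did not pass (0.09, limma adjusted p = 0.806). Traf6, the main adaptor of RANK, fell at 2 of 3 probe sets. The brightest gave 375 and 303 against 214 and 226 (-0.57, SE 0.18, limma adjusted p = 0.0482). Its call was lost in 5 of the 12 alternatives, and not only where an array was left out. The Traf6 call was lost without wild-type replicate 1 (adjusted p = 0.198), deficient replicate 1 (0.174) or deficient replicate 2 (0.0965), and over all 12 alternatives the adjusted p ran from 0.0270 to 0.198. Traf2, an adaptor of TNF receptors and of the complex that degrades NIK, rose from 297 and 292 to 554 and 521 (0.82, SE 0.14, limma adjusted p = 0.00459). Of 11 tested adaptors and ubiquitin ligases 1 fell and 1 rose, a share of 18.2% called beside 24.9% of all genes. Irak1 missed the threshold at its brightest probe set (-0.63, limma adjusted p = 0.0521). Its other probe sets had 0.29, -0.29 and -0.31, and none passed. The brightest had -0.97 (adjusted p = 0.00236) without deficient replicate 1 and -0.29 without deficient replicate 2. It also passed with median scaling, the replicate block, the larger pseudocount, the filter at the 60th percentile and without wild-type replicate 1. Myd88, the adaptor of Toll-like receptors, had 0.27 (adjusted p = 0.115), and the ubiquitin ligase gene Birc2 had -0.18 (adjusted p = 0.351). Of 7 receptors tested 1 passed, a share of 14.3% beside 24.9% of all genes. This was Cd40, which rose from 81.3 and 74.1 to 145 and 145 (0.74, adjusted p = 0.0499). That call was lost whichever of the 4 arrays was left out (changes of 0.68 to 0.79). It was also lost without the filter (limma adjusted p = 0.138), with the pseudocount at the 10th percentile (0.0526) and with the replicate block (0.0684). Another Cd40 probe set had 0.43 and did not pass. The RANK gene Tnfrsf11a had 0.27 (adjusted p = 0.155) and, at its other probe set, -0.14. The lymphotoxin-beta receptor gene Ltbr had -0.28 (adjusted p = 0.369) and Tlr4, the endotoxin receptor, 0.26 (adjusted p = 0.283), with -0.03 at its other probe set. None of the 7 receptors fell, and 0 were lower at an unadjusted p under 0.05 by limma, beside 17.9% of all genes.

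**Figure D4:**
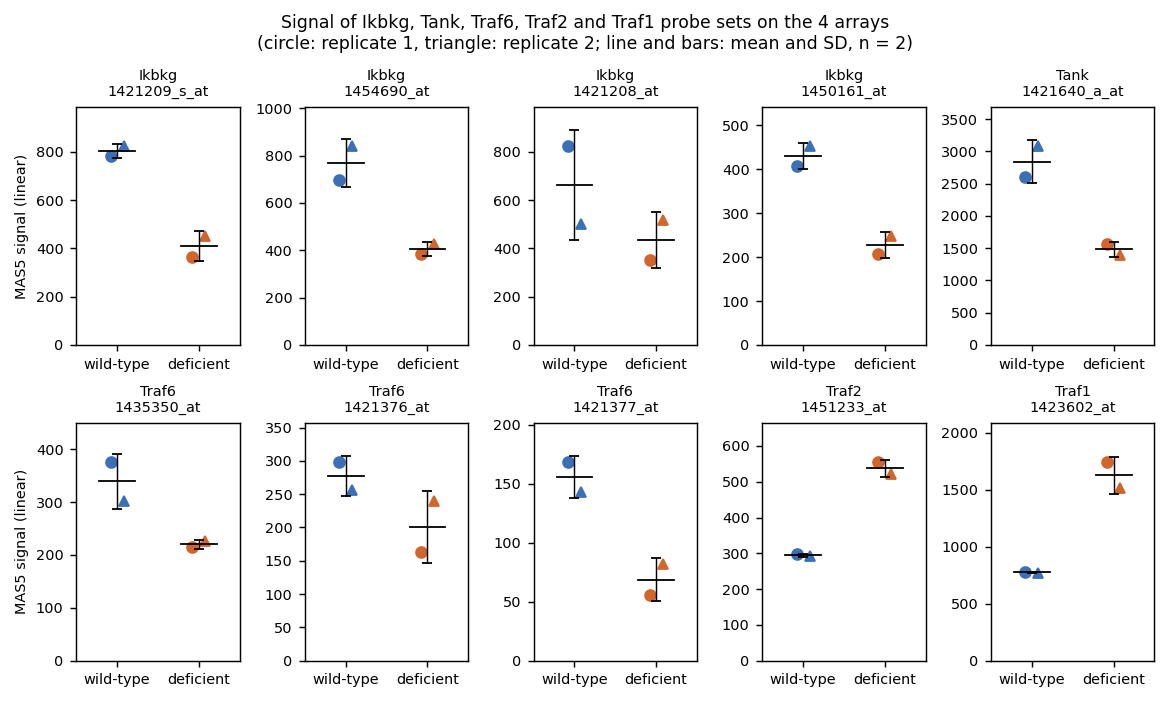
MAS5 signal (linear axis from 0) of every tested probe set of Ikbkg, Tank, Traf6, Traf2 and Traf1 on the 4 arrays, with the mean and SD of each group (n = 2). The deficient points lie below the wild-type points for Tank and all Traf6 probe sets and for 3 of 4 Ikbkg probe sets, and above them for Traf2 and Traf1.

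Among 16 other regulators 2 fell and 1 rose, a share of 18.8% called beside 24.9% of all genes. Nkiras2, a Ras-like protein that binds IkB, changed by -0.75 (adjusted p = 0.00428), and Itch, a ubiquitin ligase that works with A20, by -0.62 (adjusted p = 0.0109). Commd1, which promotes removal of Rela from chromatin, rose by 0.61 (adjusted p = 0.0216), but by 0.43 without deficient replicate 1, where the call was lost. The Commd1 call was also lost without the filter (limma adjusted p = 0.0586) and without the variance trend (0.0825). Another Commd1 probe set had 0.48 (adjusted p = 0.0511). The atypical IkB gene Bcl3 had a change of 0.08 (adjusted p = 0.689) and Tnip1, an A20 partner, 0.29 (adjusted p = 0.0653). Nfkbil1 had 0.54 (adjusted p = 0.161) and N4bp1 0.27 (adjusted p = 0.241).

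Of 24 target genes of NF-kappaB tested, 2 fell and 5 rose, a share of 29.2% called. Over all genes 24.9% were called, 12.0% lower and 12.9% higher. The median change of the target genes was -0.02. Traf1, a TRAF adaptor induced by NF-kappaB, rose from 777 and 774 to 1743 and 1514 (1.04, SE 0.12, limma adjusted p = 0.000721). Cd83 fell from 104 and 89.0 to 35.4 and 23.6 (-1.19, adjusted p = 0.0223), and its lowest signals were near the pseudocount. The mitochondrial superoxide dismutase Sod2 fell at both probe sets, by 0.39 (adjusted p = 0.0411) and 0.70 (adjusted p = 0.00211) on the log2 scale. Ier3 (0.80), the immunoproteasome gene Psmb9 (0.66) and tapasin (Tapbp, 0.36) rose, although another Tapbp probe set had -0.15 and did not pass. Tnfaip2 rose at its brightest probe set (0.46, adjusted p = 0.0442) and fell at the other (-0.70, adjusted p = 0.00268), so its direction is unsettled. Among those that did not pass, the largest changes were in Cxcl10, Tnf and Csf1. Cxcl10 gave 346 and 169 against 141 and 92.8 (-0.95, adjusted p = 0.0637), and it passed without wild-type replicate 2 (-1.42, adjusted p = 0.000942), with median scaling (0.000631) and with the replicate block (0.00805). Tnf gave 220 and 84.8 against 196 and 24.7 (-0.66, adjusted p = 0.506), with a value of -1.76 and an adjusted p of 0.0300 without deficient replicate 1 and a value of 0.44 without deficient replicate 2. Csf1 gave 163 and 82.2 against 49.6 and 101 (-0.56, adjusted p = 0.311). Left-out arrays ended several of these calls: Sod2, Ier3 and Tapbp without wild-type replicate 2 or either deficient array (adjusted p up to 0.239, 0.179 and 0.171), Psmb9 without wild-type replicate 2 or deficient replicate 1 (up to 0.171), Tnfaip2 without either replicate 1 array (up to 0.275) and Cd83 without wild-type replicate 1 or deficient replicate 2 (up to 0.0939). Processing mattered too. At their brightest probe sets Sod2, Ier3, Tapbp, Psmb9 and Tnfaip2 lost their calls without the filter and also without the variance trend. Cd83 lost its call without the filter. Median scaling ended the calls of Sod2, Tapbp and Tnfaip2 at those probe sets. The dimmer Sod2 probe set and the falling Tnfaip2 probe set kept their calls whichever array was left out, as did Traf1, Traf2, Tank, Nkiras2, Itch and the brightest Ikbkg probe set.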

How the data were processed

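The authors deposited 1 intensity per probe set and array, linear and not logged. The submitters' processing notes name MAS5 without a version. The mean of each array without its top and bottom 2% was 499.95, so the arrays share 1 trimmed mean. Their medians still differed, at 130 and 112 on the wild-type and 114 and 125 on the deficient arrays. Detection calls were not used here. The number of arrays limits the precision.

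Gene names came from the platform annotation, with symbols updated through RefSeq (20393 of 22690 had 1 symbol). Values were taken as log2(signal + 23.3), the 25th percentile of all values. After 64 control probe sets were left out, those with a mean above the 40th percentile (signal 62.0) were kept, and 13575 entered the fit (limma 3.58.1, R 4.3.3; lmFit, eBayes with trend, two-sided, Benjamini-Hochberg, threshold 0.05). Adjusted p-values are from that fit. Scripts were tested on simulated data. Named genes were all members and, of each pathway list, those past the threshold with up to 3 of the largest others; Ikbkb and Bcl3 were added after their values were seen. Members and lists were chosen with earlier results of these data known. Alternatives covered scaling, pseudocount, filter, trend, a replicate block and leaving out each array.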

Additional observations from a re-analysis of the deposited data

How the results depend on the processing

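Over 12 alternatives, 11 of the 12 member probe sets did not pass wherever they were tested. None of these 11 passed in the main fit either, so this does not show that their changes are stable. The sign of the change reversed in several when 1 array was left out. Without wild-type replicate 1 it was -0.17 for Nfkbib and -0.11 and -0.01 for Nfkb2. It was 0.08 for Rel without wild-type replicate 2, and 0.01 for Nfkbia 1420089_at without deficient replicate 1. Rel and Tnfaip3 were not tested under the filter at the 60th percentile. The count of lower member probe sets went from 1 to 0 with median scaling, without the filter and without the variance trend, and ran from 0 to 1 when 1 array was left out. Of the pathway genes, 7 lower and 8 higher, there were 4 lower and 2 higher without the filter, 3 higher without the variance trend, and 4 to 7 lower and 2 to 6 higher when 1 array was left out. Over all probe sets, where 1554 were lower and 1742 higher, there were 1061 and 990 without the trend, 1140 and 1157 without the filter, and 940 and 854 without NFATc1-deficient replicate 1. With the replicate number as a block, 1 member probe set was lower and 0 were higher, and 9 pathway genes were lower and 9 higher; deviations of same-numbered arrays correlated at 0.13, and the labels do not say that a number marks a shared batch. Without the filter more probe sets enter the adjustment, and the unadjusted limma p also changed, for Nfkbia 1448306_at from 0.00629 to 0.00897. The cause of these shifts was not tested. With 2 arrays a genotype, a member change smaller than its interval could not be told from 0.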
